A study of Arabidopsis thaliana with 6 samples.

Results

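The wild-type libraries of an Arabidopsis thaliana root explant series were described by expression level. The aim was to show which root, callus, shoot and hormone genes had transcripts in explants cultured to induce shoots. They are 2 of the 6 libraries of the series, chosen by their genotype label, and both carry no mutation or transgene according to that label, which names no strain. Culture began with 5 days on a callus-inducing medium (CIM), after which 7 days followed on a shoot-inducing one (SIM). SIM held 1 mg/L of N6-(2-isopentenyl) adenine, a cytokinin, and 0.15 mg/L of the auxin IAA, and both steps took place in continuous light at 22 °C. The authors' table gives these libraries 35593 isoforms, which were summed to 26726 genes. Levels are FPKM (fragments per kilobase of transcript, scaled to the size of the library), so that genes of different length can be set side by side, and each pair of values below is replicate 1 followed by replicate 2. No genotypes were compared and no test was made, since the labels do not say that the 2 libraries came from separate cultures and their spread may be technical.

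Shoot regeneration in culture runs through a callus that forms from pericycle-like cells of the root and that resembles lateral root tissue more than an undifferentiated mass. Auxin-rich medium starts this callus through ARF and LBD transcription factors. Cytokinin-rich medium then allows patches of it to acquire shoot identity, marked by the homeobox genes WUS and STM, the boundary genes CUC1 and CUC2 and the signal peptide gene CLV3. Cytokinin acts through a phosphorelay: histidine kinase receptors pass a phosphate through AHP proteins to type-B response regulators, which are transcription factors, and type-A response regulators are among their early targets and dampen the pathway. Auxin acts by removing Aux/IAA repressors from ARF factors, while PIN and AUX1/LAX carriers move it between cells.

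The 2 libraries held 9012057 and 9381532 estimated counts. A gene was called detected when it reached 1 FPKM in both, and 16770 genes (62.7%) did. Another 1115 genes reached it in 1 library only, and 8841 were under it in both. Of the detected genes 5673 had a mean under 10 FPKM, 9301 lay between 10 and 100 FPKM and 1796 had a mean of at least 100 FPKM. The median was 5.82 FPKM over all genes and 17.2 FPKM over detected genes. Between the libraries the median absolute difference of log2(FPKM + 1) was 0.23 over detected genes and the 95th percentile was 1.00, and Pearson's r across all genes was 0.981. Of the detected genes 838 (4.997%) differed by at least 1 in log2(FPKM + 1), and 51.7% were higher in replicate 2. At low levels this cut is stricter than a 2-fold difference in FPKM. A library's 3 counts, used as the limit below which a gene is not separated from 0, correspond to 0.333 and 0.320 CPM (counts scaled to library size). These limits cover counting error only. In whole explants, fewer cells of a type and less RNA per cell cannot be told apart.

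**Figure D1:**
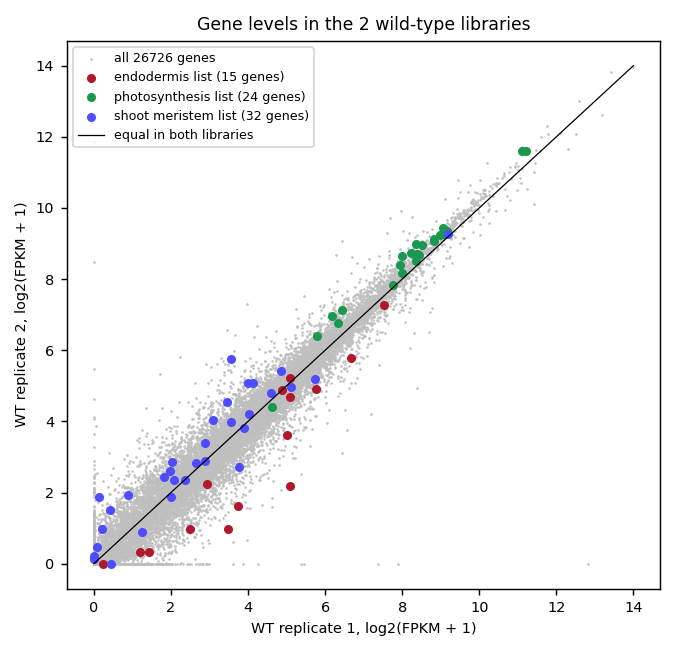
Level of every gene in WT replicate 1 (x axis) against WT replicate 2 (y axis), both as log2(FPKM + 1), with grey points for the 26726 genes, coloured points for 3 gene lists and a line of equal levels. Photosynthesis genes lie at the top right and 23 of 24 are higher in replicate 2, while 9 of the 10 detected endodermis genes are higher in replicate 1.

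The most abundant transcript was that of MT2B, a metallothionein, which is a small cysteine-rich metal-binding protein. MT2B (AT5G02380, chr5:506498-507244 in the table's coordinates) stood at 16398 and 15906 FPKM, with MT2A at 2720.2 and 2078 FPKM and MT3 at 2816 and 3138 FPKM. Glycine-rich proteins came next, with GRP9 at 11022 and 14564 FPKM and its relative AT2G05510 at 6129 and 8203 FPKM. Both libraries of MT2B lay above both of GRP9, and both of GRP9 above both of AT2G05510. Redox and detoxification proteins followed. The thioredoxin TRX3 had 5814 and 4324 FPKM, the glutathione transferase GSTF9 had 3473 and 5064 FPKM and the iron superoxide dismutase FSD1 had 2791 and 2480.4 FPKM. PYK10 is a beta-glucosidase known as an abundant protein of root endoplasmic reticulum bodies. PYK10 (chr3:2840477-2843781) had 4375 and 4441 FPKM, and PBP1, the lectin named for binding it, had 2207 and 2181.8 FPKM. Both differed little between libraries. PCK1, the phosphoenolpyruvate carboxykinase of gluconeogenesis, was equally steady at 3052 and 3107 FPKM.

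The other genes among the 25 of highest mean FPKM included defence peptides, translation genes and photosynthesis genes. The defensin-like gene AT3G05730 stood at 5071 and 3242 FPKM, the cysteine-rich peptide gene LCR69 at 3109.8 and 4054 FPKM and the dehydrin gene AT1G54410 at 3553 and 4289 FPKM. The first was higher in replicate 1 and the other two in replicate 2. TCTP, the gene of the translationally controlled tumor protein, had 2228 and 3381 FPKM. The translation genes were the elongation factor gene EF1A, at 1954 and 2310.4 FPKM, and 4 ribosomal protein genes. These 4 (AT1G56045, AT4G27090, AT3G60245 and AT3G11120) lay between 1946 and 2942 FPKM. AT1G56045 and AT3G11120 both encode ribosomal protein L41, so close copies may share reads. LHCB1.3, a chlorophyll-binding antenna protein of photosystem II, had 2391 and 3082 FPKM. RBCS1A, a small subunit of Rubisco, had 2212 and 3103 FPKM. Another 2 of the 25 had very short transcripts and few reads. AT4G16240, with an isoform of 129 bases, had 9285 and 6262 FPKM from 3.31 and 1.88 estimated counts. RTFL13, with an isoform of 132 bases, had 7178 and 0 FPKM from 4.28 and 0 estimated counts.

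**Figure D2:**
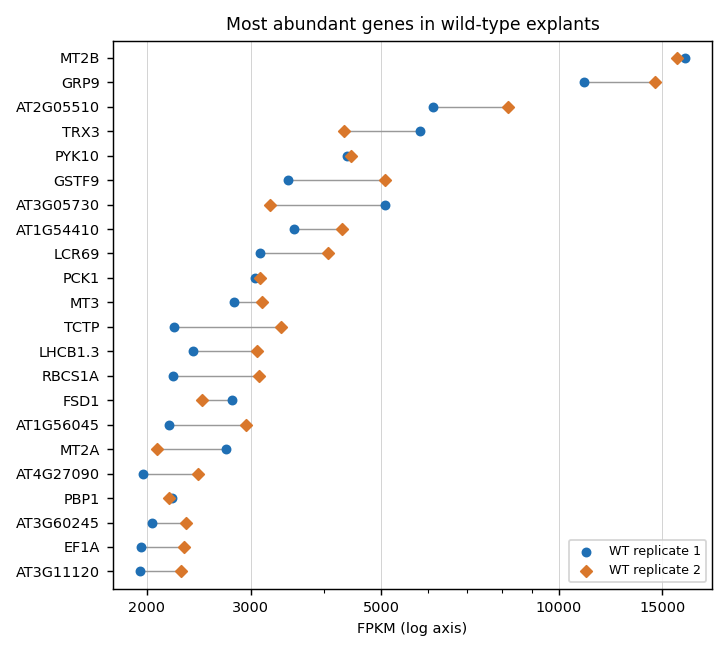
Level in FPKM (log x axis) of the 22 genes of highest mean FPKM among those with at least 10 estimated counts in each library, with a circle for WT replicate 1, a diamond for WT replicate 2 and a line joining them. MT2B and GRP9 lie at or above 11022 FPKM in both libraries, and the rest lie between 1946 and 8203 FPKM.

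The 25 most abundant genes held 11.4% and 10.6% of the summed FPKM, and the 100 most abundant held 21.4% in each library. Of the 25, 2 had under 10 estimated counts in a library, and of the 100, 4 did. The 2 of the 25, AT4G16240 and RTFL13, both had a higher FPKM in replicate 1. The difference between the shares of the 25 therefore rests in part on a few reads and was not read further. Genes were then grouped by words in their product names. Among the 100 most abundant genes with at least 10 estimated counts, 38 fell in the ribosomal protein group. All genes of that group, of which 366 of 409 were detected, held 7.88% and 8.90% of the estimated counts. The ubiquitin group held 5 of the same 100, among them UBC10, and the group of peroxidases, catalase, superoxide dismutase or peroxide reductase held 5. The metallothionein, glycine-rich protein, photosynthesis and translation factor groups held 4 each and the glutathione transferase group 3. GRP7 was not counted as glycine-rich, since its product name lacks that word. TCTP (translationally controlled tumor protein) and AT3G49910 (Translation protein SH3-like family protein) entered the translation factor group by the wording of their names. Plastid and mitochondrial genes held 0.0489% and 0.0268% of the estimated counts, and the photosynthesis genes described below are nuclear.

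The letters before the start of these highly expressed genes were read from the RefSeq annotation of the TAIR10.1 genome, to show what stands where a TATA box usually lies. The motif searched was TATAAA, on the gene's own strand, in the 50 bases before the annotated start. Of 91 genes with such a window among the 100 most abundant, 17 (18.7%) held it. The share was 11.7% over all 22070 genes with a window, 11.9% among 1282 genes with at least 100 FPKM in both libraries and 12.9% among 7470 genes under 1 FPKM in both. Counted on either strand, the motif was in 25.3% of the windows of the 91 genes and in 16.2% of all windows. Below are 100 bases before the start of the metallothionein genes MT2B (minus strand, chr5:507245-507344) and MT3 (minus strand, chr3:5181587-5181686), of PYK10 (minus strand, chr3:2843782-2843881) and of GRP9 (plus strand, chr2:1992938-1993037), 5′ to 3′ with the match inside the 50-base window in capitals. PYK10 holds the same letters once more farther from its start, outside the window, and these are left in lower case. Of the 91 genes, those printed are the most abundant with the motif (MT2B, PYK10 and MT3) and the most abundant without it (GRP9). They were chosen by the match, so they do not show how common it is.
MT2B: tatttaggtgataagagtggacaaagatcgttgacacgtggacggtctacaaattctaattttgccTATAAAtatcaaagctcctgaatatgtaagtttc
PYK10: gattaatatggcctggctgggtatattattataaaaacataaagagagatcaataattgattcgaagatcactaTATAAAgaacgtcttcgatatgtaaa
MT3: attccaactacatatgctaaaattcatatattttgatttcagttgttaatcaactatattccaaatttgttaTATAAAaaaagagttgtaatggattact
GRP9: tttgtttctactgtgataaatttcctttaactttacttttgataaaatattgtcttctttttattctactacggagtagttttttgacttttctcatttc

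The first base of the match lies 34 bases before the start in MT2B, 28 in MT3 and 26 in PYK10. GRP9, the gene of the second highest level, has no match in its window. A match is a description of the letters and not a measured site.

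In all, 29 gene lists with 496 genes were looked up and 490 of these genes were in the table under their own identifier. Of the 490, 342 were detected. Each count of detected list members below stands beside the 62.7% detected over all genes. Reference genes, used here as a check of the libraries, were all detected (8 of 8). UBQ10, a polyubiquitin gene, had 1593 and 1893 FPKM, GAPC1, a glycolytic dehydrogenase gene, had 1386 and 957 FPKM, and the actin gene ACT2 had 221 and 213 FPKM. The phosphatase subunit gene PP2AA3, a common reference in quantitative PCR, had 43.3 and 48.1 FPKM. Seed genes were the opposite case: 1 of 14 was detected, the MADS-box gene AGL15 at 2.88 and 4.32 FPKM. The embryo regulators LEC1, FUS3 and ABI3, the storage protein genes CRA1, CRB, CRC (the 12S globulin) and SESA3 and the oleosin genes OLEO1 and OLEO2 were listed at 0 in both libraries. LEC2, SESA1, SESA2 and SESA4 were under 1 FPKM in both.

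Root genes were detected in part. Over the 4 root lists (meristem and cap, hair, endodermis, uptake) 31 of 60 genes were detected, 51.7% against 62.7% of all genes. Of the root meristem and cap list 8 of 22 were detected, and its median was 0.52 FPKM. The detected ones were led by SHR and SCR, GRAS transcription factors that pattern the ground tissue. SHR had 22.6 and 26.9 FPKM and SCR had 11.9 and 9.27 FPKM, and both libraries of SHR lay above both of SCR. The AP2 factor PLT3 had 6.15 and 12.7 FPKM and PLT7 had 4.06 and 2.64 FPKM, and UPB1, a bHLH factor of the root transition zone, had 8.58 and 9.13 FPKM. The stem cell niche genes were scarce. WOX5, the homeobox gene of the quiescent centre, had 2.30 and 0.184 FPKM, that is 11.8 and 0.938 estimated counts, and so passed 1 FPKM in replicate 1 only. PLT1 had 0.469 and 0.206 FPKM and PLT2 had 0.293 and 0.206 FPKM, so neither reached 1 FPKM in either library. BBM, WOX7, RGF3 and the root cap genes FEZ, SMB, BRN1 and BRN2 were also under 1 FPKM in both. The peptide genes CLE40, RGF1 and RGF2 were listed at 0 in both libraries. Within the PLT family and its relative ANT the order was ANT, PLT3, PLT5, PLT7, PLT1, PLT2, BBM, and PLT5 overlapped with PLT7, PLT1 with PLT2 and PLT2 with BBM.

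Root hair genes were detected in 7 of 13 cases (53.8% against 62.7% of all genes), with a list median of 1.89 FPKM. The cell wall protein gene PRP3 led at 14.1 and 51.1 FPKM, and the expansin genes EXPA7 and EXPA18 stood at 7.27 and 21.4 FPKM and 7.56 and 18.8 FPKM. RHD2, the NADPH oxidase of growing hairs, had 5.83 and 8.86 FPKM. Of the 7 detected genes 6 were higher in replicate 2. The fate genes WER, GL2 and RSL1 and the later hair gene RSL2 were under 1 FPKM in both libraries. Of the endodermis and suberin list 10 of 15 were detected (66.7%, near the share of all genes), with a median of 18.3 FPKM by mean level. The list median was 28.6 FPKM in replicate 1 and 3.74 FPKM in replicate 2, while the summed FPKM of the list was 534 and 349. The median thus fell much further than the sum. Suberin enzymes led the list. CYP86A1, which hydroxylates fatty acids for suberin, had 184 and 154 FPKM, ASFT, a feruloyl transferase, had 101 and 53.9 FPKM and the fatty acyl reductase gene FAR4 had 32.8 and 36.2 FPKM. MYB36, the transcription factor that switches on Casparian strip genes, had 53.1 and 28.8 FPKM. The Casparian strip genes CASP1, CASP2 and ESB1 were lower in replicate 2. CASP1 (chr2:15159591-15160750), a membrane scaffold protein of the strip, had 33.1 and 3.54 FPKM and CASP2 had 10.07 and 0.967 FPKM. ESB1, a dirigent protein of the strip, had 31.3 and 11.2 FPKM and so stayed above 10 FPKM in both. CASP5 was under 1 FPKM in both libraries. The suberin genes GPAT5, at 28.6 and 28.4 FPKM, and FAR4 were close to equal. Set against the tissue label, transcripts of suberin enzymes, of MYB36 and of the root protein PYK10 were present, but few of the root stem cell niche. Of the 5 CASP genes 1 was detected. As the share of the list lay near that of all genes, it does not mark endodermis as such.

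Nutrient uptake genes were detected in 6 of 10 cases (60%), close to the 62.7% of all genes. The ammonium transporter gene AMT1;1 had 75.1 and 58.9 FPKM, the nitrate transporter gene NRT1.1 had 31.8 and 35.9 FPKM, the potassium channel gene AKT1 had 32.3 and 32.9 FPKM and the boron exporter gene BOR1 had 11.1 and 9.70 FPKM. NRT1.1 and AKT1 overlapped. The iron uptake genes IRT1, listed at 0, and FRO2, the high-affinity potassium transporter gene HAK5 and the nitrate transporter gene NRT2.1 were under 1 FPKM in both libraries.

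Vascular genes were detected in 17 of 18 cases, with a median of 14.1 FPKM. SUC2, the sucrose loader of phloem companion cells, led at 623 and 349 FPKM. The xylem peptidase genes XCP1 and XCP2 had 71.5 and 164 FPKM and 74.0 and 197 FPKM, and ACL5, which makes thermospermine in developing xylem, had 95.5 and 156 FPKM. SUC2 was higher in replicate 1, while the xylem peptidase genes were higher in replicate 2, and 13 of the 17 detected genes were higher in replicate 2. The cambium genes WOX4 and PXY had 18.9 and 30.4 FPKM and 11.9 and 22.6 FPKM. VND6, a master factor of metaxylem, was under 1 FPKM in both libraries. The table lists CALS7, a callose synthase gene of sieve elements, together with its neighbour AT1G06500, and its own isoform had 7.06 and 5.64 FPKM.

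Of the callus and wounding list 10 of 21 were detected (47.6% against 62.7% of all genes), with a median of 1.43 FPKM. The detected genes were led by the wound-induced AP2/ERF factors. WIND1 (AT1G78080, chr1:29364249-29366073), which promotes callus at cut sites, had 129 and 97.9 FPKM, WIND2 had 101 and 117 FPKM and WIND3 had 35.1 and 31.5 FPKM. WIND1 and WIND2 overlapped, and both lay above WIND3. WIND4 was under 1 FPKM in both libraries. WOX13, a homeobox factor of callus and organ reconnection, had 30.4 and 36.3 FPKM. The LBD factors, which act downstream of ARF7 and ARF19 when callus starts, did not reach the detection threshold, and none of the 5 listed passed 1 FPKM in both libraries. LBD18 had 0.809 and 1.78 FPKM, LBD16 had 0 and 0.222 FPKM and LBD29 was listed at 0. LBD17, LBD33, PUCHI, WOX11, WOX12 and ERF115 were under 1 FPKM in both libraries. ARF7 and ARF19 themselves, the auxin response factors upstream, were present at 11.9 and 10.6 FPKM and 9.68 and 9.86 FPKM.

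Over the shoot lists (meristem, leaf primordium, epidermis) 51 of 75 genes were detected, 68% against 62.7% of all genes. Of the shoot meristem list 23 of 32 were detected (71.9%), and its median was 6.04 FPKM. RAP2.6L (AT5G13330, chr5:4272060-4274660), an ERF factor needed for normal shoot regeneration, was the most abundant member at 584 and 615 FPKM, above 99.1% of all genes. No other member came within 10-fold of it. The GRAS genes HAM3 and HAM1, whose proteins partner WUS, had 52.2 and 35.7 FPKM and 33.7 and 30.6 FPKM. KNAT6, a class I KNOX homeobox gene, had 27.9 and 41.9 FPKM. The 3 were the next members by mean level.

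WUS (AT2G17950, chr2:7808871-7810795), which specifies the organising centre of the shoot meristem, had 12.7 and 5.54 FPKM, from 123 and 53.5 estimated counts. It was the third WOX gene by level, after WOX13 and WOX4 and above WOX14 in both libraries. CLV3, the peptide gene of the stem cells that restrict WUS, had 0.369 and 0 FPKM, from 1.07 and 0 estimated counts, which is under the limit of 3 counts. Its receptors were detected, with CLV1 at 5.29 and 6.09 FPKM, CLV2 at 6.42 and 9.45 FPKM and the pseudokinase CRN at 10.8 and 14.8 FPKM. STM, the KNOX gene that keeps meristem cells undifferentiated, had 2.55 and 4.39 FPKM. Both of its libraries lay below both of KNAT6 and of BP, another KNOX gene, at 15.4 and 17.3 FPKM. KNAT2 had 1.36 and 0.857 FPKM.

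The boundary genes CUC1 and CUC2 had 7.54 and 15.3 FPKM and 3.06 and 6.22 FPKM, and CUC1 lay above CUC2 in both libraries. CUC3 had 0.0917 and 2.63 FPKM. All 3 were higher in replicate 2. The ERF factors ESR1 and ESR2, which promote shoot formation on cytokinin, had 0.326 and 1.82 FPKM and 0.159 and 0.978 FPKM. ESR1 passed 1 FPKM in replicate 2 only and ESR2 in neither. PLT5, an AP2 factor that acts before shoot identity is set, had 2.92 and 5.14 FPKM. The boundary genes LSH3 and LSH4 had 16.4 and 32.9 FPKM and 10.7 and 53.2 FPKM, both higher in replicate 2. WOX9, UFO and PNF were under 1 FPKM in both libraries. Of the 23 detected genes 16 were higher in replicate 2, and WUS was among the 7 that were not.

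**Figure D3:**
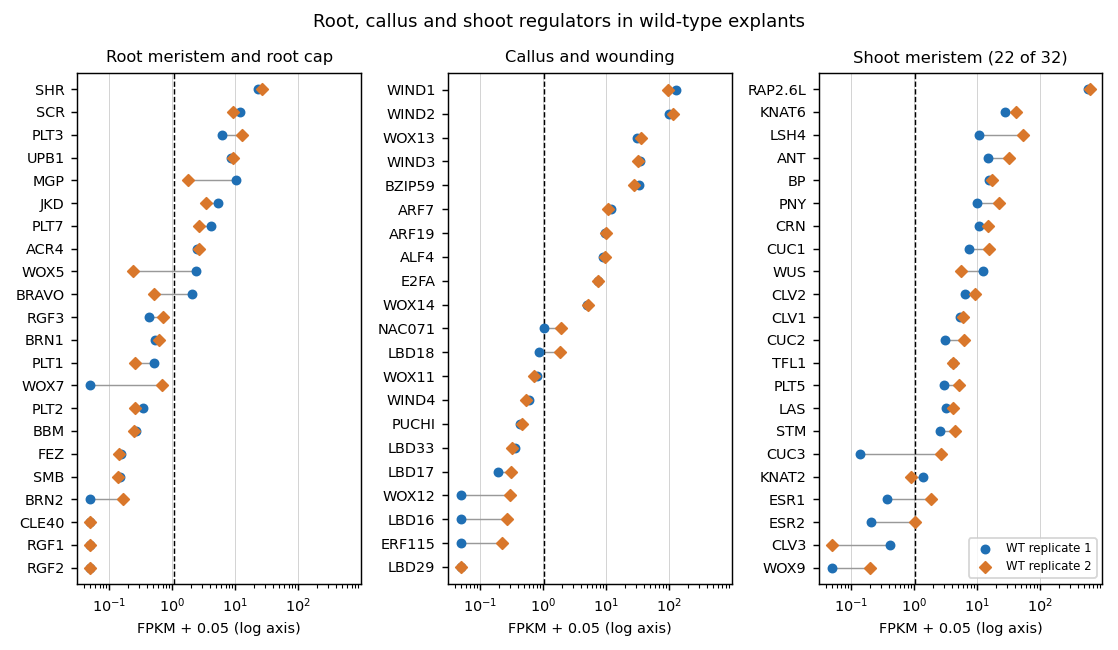
Level of root meristem, callus and shoot meristem genes in FPKM plus 0.05 (log x axis), with a circle for WT replicate 1, a diamond for WT replicate 2 and a dashed line at the detection threshold of 1 FPKM. SHR, WIND1 and RAP2.6L head the panels, while PLT1, PLT2, LBD16, LBD29 and CLV3 lie left of the threshold in both libraries.

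Leaf primordium genes were detected in 14 of 23 cases (60.9%, close to the 62.7% of all genes), with a median of 3.15 FPKM. The adaxial HD-ZIP III genes were all detected (5 of 5), and 4 of them were the highest members of the list. ATHB15 had 81.4 and 118 FPKM, PHB had 83.4 and 92.4 FPKM, PHV had 65.7 and 58.2 FPKM and REV had 49.8 and 51.2 FPKM. ATHB15 and PHB overlapped, and the others followed in that order without overlap. ATHB8, the fifth of them, had 21.1 and 33.4 FPKM and had a lower mean than AS1 and TCP4. These genes are also expressed in vascular tissue, so they do not mark leaves alone. None of the 4 YABBY genes, which mark the abaxial side of lateral organs, was detected. FIL had 0.958 and 2.05 FPKM and YAB3 had 0.426 and 0.827 FPKM, and YAB2 and YAB5 were under 1 FPKM in both libraries. AS2, GRF5 and PRS were under it as well, and PRS was listed at 0. AS1, the MYB factor that keeps KNOX genes off in leaves, had 34.4 and 54.9 FPKM.

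Shoot epidermis and cuticle genes were detected in 14 of 20 cases (70% against 62.7% of all genes). The lipid transfer protein genes LTP1 and LTP2 led at 1029 and 752 FPKM and 595 and 385 FPKM, followed by LACS2, an acyl-CoA synthetase of cutin synthesis, at 36.5 and 23.0 FPKM. PDF1, a protodermal gene, had 17.6 and 39.0 FPKM and was the only one of the 14 higher in replicate 2. Of the stomatal lineage, entry genes passed the threshold narrowly: SPCH had 2.6 and 1.33 FPKM, EPF2 had 2.55 and 1.00 FPKM and TMM had 2.95 and 1.66 FPKM. EPF2 rested on 9.62 and 3.75 estimated counts and SPCH on 21.8 and 11.1. MUTE and EPF1 were listed at 0 in both libraries, and FAMA was under 1 FPKM in both. The trichome genes GL1, under 1 FPKM in both, and TRY, listed at 0, were not detected.

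Floral genes were detected in 4 of 11 cases (36.4% against 62.7% of all genes). PI (AT5G20240, chr5:6829042-6831515), a MADS-box gene of petal and stamen identity, had 80.5 and 91.7 FPKM from 675 and 766 estimated counts. SEP3, a MADS-box partner of the floral organ factors, had 28.2 and 20.2 FPKM, AG, the stamen and carpel gene, had 3.69 and 5.90 FPKM and the flowering signal gene FT had 3.33 and 3.39 FPKM. AP3, whose protein pairs with PI in flowers, had 0.683 and 0.961 FPKM, under the threshold in both libraries. LFY, SEP1 and SEP2 were also under it, and AP1, INO and CRC (the YABBY gene) were listed at 0. In both libraries PI therefore lay above every other listed floral gene.

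Photosynthesis genes were all detected (24 of 24), with a median of 370.4 FPKM, and 19 of them were at least 100 FPKM in both libraries, as were 6.07% of all genes. Beside LHCB1.3 and RBCS1A, given above, PSBO1, a subunit of the oxygen-evolving complex, had 572 and 658 FPKM and LHCB4.1, a minor antenna protein, had 531 and 692 FPKM. RBCS1A made up 84.4% and 84.2% of the summed FPKM of the 4 Rubisco small subunit genes, whose near-identical sequences make the split between them uncertain. LHCB1.3 has such copies too: LHCB1.1 had no isoform in the table. Of the 24 genes 23 were higher in replicate 2, against 51.7% of all detected genes, with a median difference of 0.34 in log2(FPKM + 1). Greening regulators and chlorophyll genes were detected in 11 of 12 cases. CHLH, a subunit of magnesium chelatase, had 119.7 and 108 FPKM, PORB, the light-dependent protochlorophyllide reductase, had 105 and 119 FPKM, HEMA1, at the start of tetrapyrrole synthesis, had 123 and 95.8 FPKM and GUN4, a cofactor of the chelatase, had 47.9 and 59.9 FPKM. The first 3 overlapped. PORA, the reductase of dark-grown seedlings, was listed at 0.

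Cytokinin genes were detected in 44 of 61 cases (72.1%), against 62.7% of all genes. Of the synthesis list 11 of 18 were detected, with a median of 1.92 FPKM. CYP735A2, which hydroxylates the side chain to make trans-zeatin forms, had 128 and 103 FPKM. IPT3, an isopentenyl transferase that starts the pathway, had 38.1 and 35.1 FPKM and made up 65.9% and 65.0% of the summed FPKM of the 9 IPT genes. LOG8, an activating enzyme that releases the free base, had 40.2 and 31.9 FPKM, and the tRNA-modifying IPT9 had 11.2 and 15.5 FPKM. IPT4, IPT6 and IPT8 were listed at 0, and IPT5, IPT7 and LOG2 were under 1 FPKM in both libraries. The oxidases that break cytokinin down were detected in 5 of 7 cases. CKX1 had 8.50 and 21.8 FPKM, CKX5 had 14.7 and 13.6 FPKM, CKX7 had 13.4 and 13.0 FPKM and CKX6 had 4.90 and 12.1 FPKM. The libraries disagreed on the leading oxidase: CKX5 was highest in replicate 1 and CKX1 in replicate 2. CKX2 was under 1 FPKM in both libraries.

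Of the perception list 13 of 20 were detected (65%), close to the 62.7% of all genes. All 3 receptor genes were, in the order AHK4, at 27.0 and 19.2 FPKM, AHK3, at 13.3 and 13.1 FPKM, and AHK2, at 6.13 and 4.57 FPKM, with no overlap. Of the phosphotransfer genes AHP1 led at 243 and 156 FPKM, with AHP3 at 67.2 and 54.9 FPKM and AHP2 at 49.8 and 42.1 FPKM. AHP6, which lacks the phosphorylated residue and inhibits the relay, had 1.05 and 1.43 FPKM. Among the 11 type-B regulators ARR12 was the highest at 37.4 and 32.1 FPKM, above ARR1 in both libraries. ARR1 had 25.7 and 24.9 FPKM and overlapped with ARR10 at 25.4 and 19.3 FPKM. Its shorter isoform, of 2344 bases, held 65.6% and 57.8% of its estimated counts and the longer, of 2669 bases, the rest. ARR14 and ARR2 had 5.15 and 6.47 FPKM and 6.23 and 5.29 FPKM. The other type-B genes ARR13, ARR18, ARR19, ARR20 and ARR21 were listed at 0 in both libraries, and ARR11 passed 1 FPKM in replicate 1 only. Thus 5 of the 11 were detected, and ARR12, ARR1 and ARR10 were the 3 highest.

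Of the output list 15 of 16 were detected, 9 of the 10 type-A regulators and all 6 CRF genes. ARR4 (AT1G10470, chr1:3442327-3443963) was by far the highest type-A gene at 369 and 443 FPKM, and it held 47.1% and 50.2% of the summed FPKM of the 10. ARR5 had 117 and 128 FPKM, ARR6 had 89.1 and 97.3 FPKM and ARR16 had 84.5 and 42.0 FPKM. ARR7 had 50.3 and 71.8 FPKM and ARR15 had 9.31 and 24.3 FPKM, both higher in replicate 2. The first 3 genes, ARR4, ARR5 and ARR6, followed each other without overlap. ARR17 had 0.449 and 0 FPKM and was the one type-A gene not detected. Summed over their members, type-A genes stood at 782 and 882 FPKM and type-B genes at 101 and 88.9 FPKM.

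**Figure D4:**
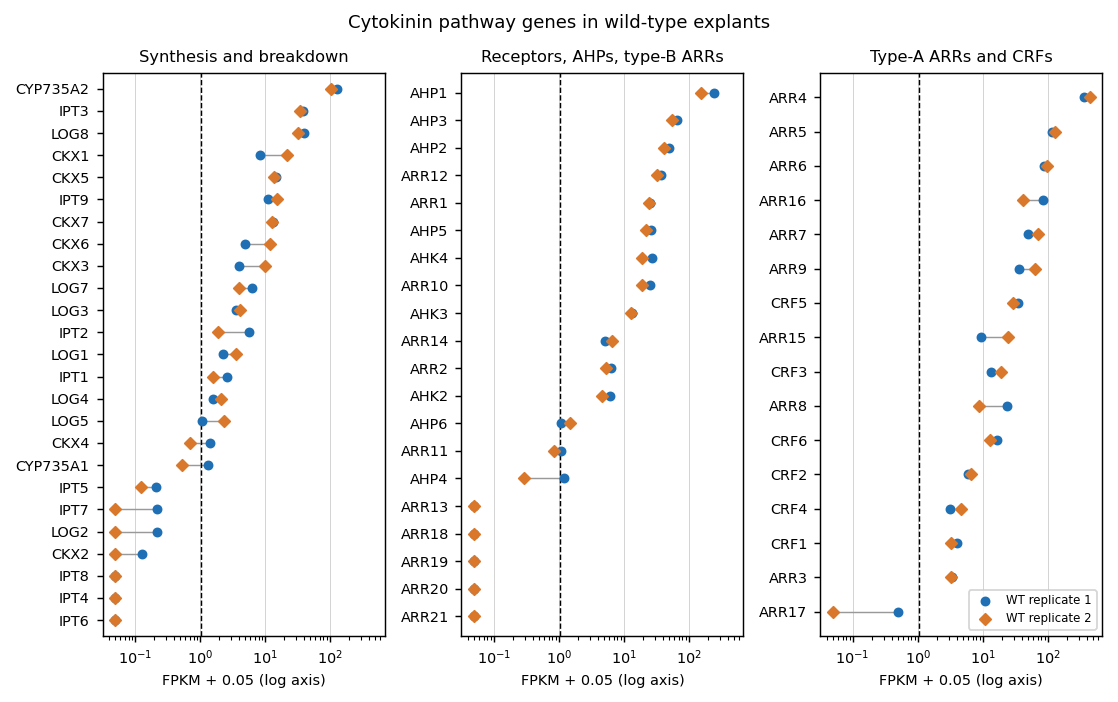
Level of cytokinin pathway genes in FPKM plus 0.05 (log x axis), grouped as metabolism, perception and output, with a circle for WT replicate 1, a diamond for WT replicate 2 and a dashed line at 1 FPKM. ARR4 and AHP1 head their panels, and 5 type-B genes and 3 IPT genes lie at the left edge because they are listed at 0 in both libraries.

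Auxin genes were detected in 47 of 66 cases (71.2%), against 62.7% of all genes. Synthesis and conjugation genes were the sparse part, with 8 of 20 detected and a median of 0.82 FPKM. The detected ones were mostly GH3 genes, whose enzymes conjugate auxin to amino acids. GH3.6 had 36.9 and 143 FPKM, GH3.17 had 40.4 and 43.9 FPKM, GH3.5 had 11.0 and 24.4 FPKM and GH3.3 had 9.11 and 17.5 FPKM. GH3.6 was the most uneven of these 4 between libraries and GH3.17 the most even. Of the 11 YUC genes, which encode the last enzyme of auxin synthesis, YUC4 led at 8.45 and 4.08 FPKM, and YUC4 and YUC6 were the detected ones. YUC1, YUC2, YUC3, YUC7, YUC9 and TAR2 were under 1 FPKM in both libraries, and YUC10, YUC11 and TAR1 were listed at 0.

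Auxin transport genes were detected in 13 of 15 cases, with a median of 18.3 FPKM. The influx carrier genes LAX3 and AUX1 had 125 and 139.6 FPKM and 70.8 and 99.8 FPKM, and LAX3 was above AUX1 in both. PID, the kinase that steers PIN polarity, had 71.8 and 59.0 FPKM and the efflux transporter gene ABCB1 had 32.6 and 46.4 FPKM. The efflux carrier genes PIN7, PIN3 and PIN4 had 12.8 and 23.9 FPKM, 13.3 and 23.0 FPKM and 17.0 and 14.8 FPKM and overlapped with each other. PIN8 was under 1 FPKM in both libraries.

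Auxin response genes were detected in 26 of 31 cases, with a median of 19.0 FPKM. Aux/IAA repressor genes led the list. IAA17 (AT1G04250, chr1:1136258-1138613) had 265 and 363 FPKM, IAA9 had 178 and 249 FPKM, IAA26 had 198 and 227 FPKM and IAA28 had 164 and 179.8 FPKM. IAA17 lay above IAA9 and IAA26 in both libraries, and these overlapped with each other. Of the 26 detected genes 23 were higher in replicate 2, with a median difference of 0.52 in log2(FPKM + 1). IAA6 and IAA29 were under 1 FPKM in both libraries, and IAA14 and IAA20 were listed at 0. IAA1 shares its entry with the neighbouring locus AT4G14570, and its own isoform had 1.02 and 9.23 FPKM.

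Gibberellin genes were detected in 12 of 16 cases (75% against 62.7% of all genes). GA2OX2, which inactivates gibberellin, led at 184 and 126 FPKM, ahead of the receptor genes GID1A, at 61.8 and 55.1 FPKM, and GID1B, at 54.9 and 27.4 FPKM. The DELLA repressor gene RGA had 36.9 and 45.1 FPKM. GA2OX1 and GA2OX4 were under 1 FPKM in both libraries, and the synthesis genes GA20OX1 and GA20OX2 passed it in replicate 1 only. Ethylene genes were detected in 13 of 18 cases (72.2%). The F-box gene EBF2 had 78.3 and 78.3 FPKM, the transcription factor gene EIN3 it targets had 72.3 and 66.6 FPKM and ACS6, an ACC synthase gene, had 40.5 and 65.1 FPKM. ACS4 was listed at 0, and ACS5, ACS8, ACS9 and ACS11 were under 1 FPKM in both libraries.

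Abscisic acid genes were among the less detected, with 5 of 13 (38.5% against 62.7% of all genes) and a median of 0.40 FPKM. KIN1, a cold and abscisic acid response gene, had 67.7 and 18.8 FPKM, the phosphatase gene ABI1 had 33.2 and 23.6 FPKM, the bZIP gene ABI5 had 2.92 and 2.43 FPKM and COR15A, another cold response gene, had 2.07 and 2.44 FPKM. RAB18, RD29B, ABI4 and NCED6 were listed at 0, and NCED2, NCED5 and NCED9 were under 1 FPKM in both libraries. Jasmonate and salicylate genes were detected in 15 of 18 cases. JAZ1, a jasmonate repressor gene, had 106 and 112 FPKM, the transcription factor gene MYC2 had 81.9 and 121 FPKM and OPR3, an enzyme of jasmonate synthesis, had 65.4 and 68.7 FPKM. VSP2, a storage protein gene that responds to jasmonate, had 14.8 and 156 FPKM and differed more than 10-fold between libraries. The defence marker genes PR1 and PDF1.2 were listed at 0.

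Brassinosteroid and strigolactone genes were detected in 10 of 11 cases. D14 (AT3G03990, chr3:1033768-1034906), the strigolactone receptor, led at 456 and 239.8 FPKM, above 98.4% of all genes. MAX1, a cytochrome P450 of strigolactone synthesis, had 53.5 and 42.1 FPKM. CPD, of brassinosteroid synthesis, had 40.5 and 38.8 FPKM, and the brassinosteroid transcription factor gene BES1 had 27.2 and 48.2 FPKM. MAX3, an earlier enzyme of strigolactone synthesis, was listed at 0.

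Cell cycle genes were detected in 25 of 26 cases, with a median of 22.4 FPKM. KRP2, an inhibitor of cyclin-dependent kinases, had 96.0 and 103 FPKM and CYCD3;1, a cyclin gene that cytokinin induces, had 71.9 and 92.1 FPKM. PCNA1, the sliding clamp of replication, had 55.3 and 62.0 FPKM and SIM, an inhibitor linked to endoreduplication, had 69.7 and 41.2 FPKM. KNOLLE, the syntaxin of cell plates, had 44.9 and 57.9 FPKM and CDKB2;1, a mitotic kinase gene, had 35.6 and 53.3 FPKM, so genes of replication, mitosis and cytokinesis were all present. CYCA2;1 was under 1 FPKM in both libraries.

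Hypoxia genes were all detected (8 of 8). PGB1, a phytoglobin that scavenges nitric oxide, had 171 and 233 FPKM, LBD41 had 54.5 and 66.1 FPKM, the alcohol dehydrogenase gene ADH1 had 22.4 and 61.5 FPKM and the sucrose synthase gene SUS1 had 36.1 and 45.3 FPKM. All 8 were higher in replicate 2. Flavonoid genes were detected in 6 of 10 cases (60%, close to the 62.7% of all genes), and these were the early enzymes and their regulator. Chalcone synthase, CHS, had 524 and 495 FPKM, the flavonol synthase gene FLS1 had 128 and 113 FPKM, the isomerase gene CHI had 82.2 and 107 FPKM and the hydroxylase gene F3H had 92.9 and 77.4 FPKM. The anthocyanin branch was not detected: DFR, LDOX and UF3GT were under 1 FPKM in both libraries and PAP1, its MYB activator, was listed at 0.

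**Figure D5:**
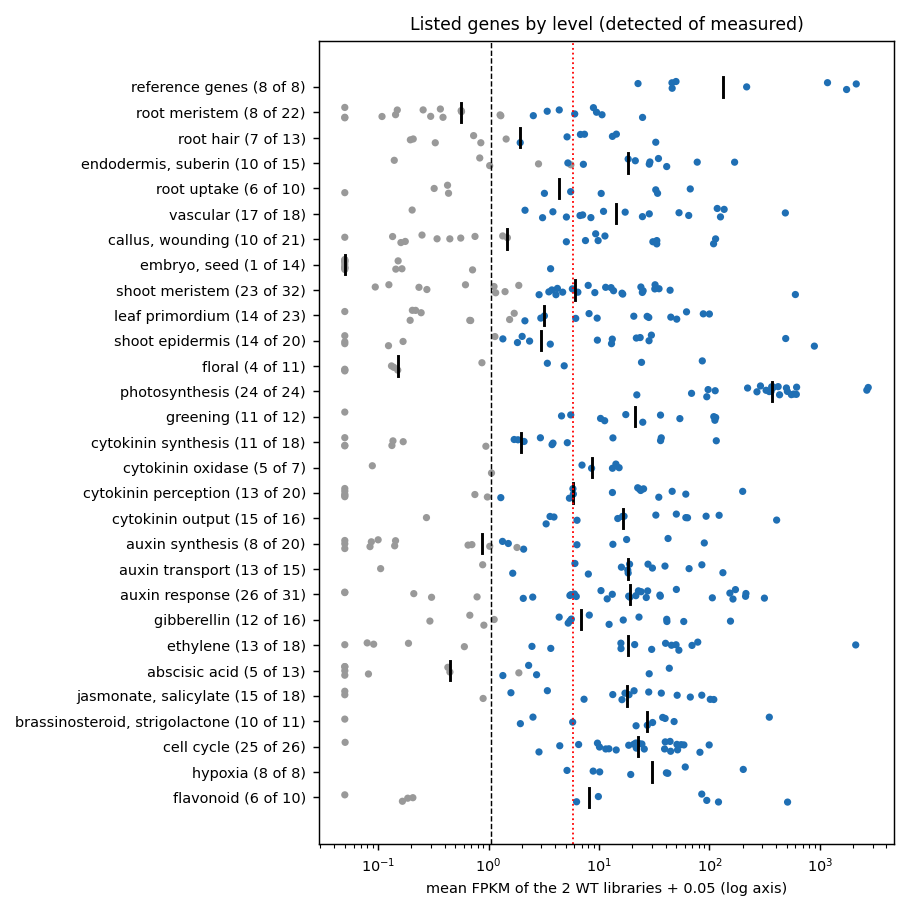
Mean FPKM of the 2 WT libraries plus 0.05 (log x axis) for every listed gene, 1 row per list, with blue points for genes detected in both libraries, grey points for the others, a black bar at the list median, a dashed line at 1 FPKM and a dotted line at the median of all genes, 5.82 FPKM. Photosynthesis has the median farthest to the right and the embryo and seed list, with 1 of 14 detected, the one at the left edge.

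Differences between the libraries ran along several lists. Endodermis genes (9 of 10 detected), shoot epidermis genes (13 of 14) and cytokinin perception genes (11 of 13) were lower in replicate 2, while photosynthesis, auxin response and hypoxia genes were higher in it, as given above. The median difference in log2(FPKM + 1), replicate 2 minus replicate 1, over the detected members of a list was -0.77 for the endodermis list and -0.63 for the shoot epidermis list, beside 0.01 over all detected genes. The largest list differences ran the other way, at 1.21 for the root hair list (6 of 7 higher) and 1.16 for the cytokinin oxidase list (3 of 5). The vascular list followed at 0.66 (13 of 17). The other 2 oxidase genes, CKX5 and CKX7, were slightly lower in replicate 2. Cell cycle genes were split evenly, 12 higher and 13 lower. With 1 pair of libraries none of these differences could be tested.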

How the data were processed

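Total RNA of 2 wild-type libraries was sequenced on an Illumina system, per the labels. Per the file headers, the authors deposited, by isoform, estimated counts and FPKM in each library. CASAVA and DESeq are listed, per the submitters' processing notes. Aligner, quantifier, build and strand setting were not given in the sources used here. Reads of near-identical, overlapping or antisense genes could therefore be split between them. The deposited estimated counts are scaled: 87.8% and 87.0% of low values were whole multiples, within 0.02, of 1.07 and 0.938. The libraries were not 1 library deposited again, since a chi-square of their counts was 20.2 per degree of freedom.

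Isoforms were summed per gene identifier of the table with Python 3.11.15 and pandas 2.3.3. The table lists 1124 isoforms under a neighbouring locus. Of the listed genes, 3 have an entry that also holds another locus, and another 5 have their isoforms under another gene. Gene starts lay within 500 bases of the RefSeq TAIR10.1 annotation for 97.4% of 25946 matched genes. The detection call was tested on simulated data.

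The gene lists and members were chosen with earlier results of these data known. A few genes that the rule takes are not reported here. Named genes were taken by rule: regulators listed by name, the 25 highest, the 4 highest detected of each list with those under 1 FPKM in both libraries, and the 5 largest differences between libraries in each direction among genes with a mean of at least 10 FPKM. Others were named after their values were seen: WOX4, WOX14, ANT, AS1, YUC6, GA20OX1, GA20OX2, ARR11, PXY, CALS7, GPAT5, CASP2, ESB1, ATHB8, ARF7, ARF19, CLV1, CLV2, CRN, BP, KNAT2, CUC3, LSH3, LSH4, FIL, YAB3, SPCH, EPF2, TMM, AP3, AHK2, AHK3, AHP6, ARR2, ARR14, ARR10, PIN3, PIN4, PIN7, IAA1, KNOLLE and CDKB2;1. Alternatives were detection at 0.5 and 2 FPKM, other units, edgeR 4.0.16 TMM scaling in R 4.3.3, and leaving out each library.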

Additional observations from a re-analysis of the deposited data

How the results depend on the processing

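Of the alternative values computed, 252 kept within the limits set for a change and 25 moved. These limits were wide for counts of detected list members. Without replicate 2 the endodermis list had 14 detected genes of 15 and the root meristem list 10 of 22, and both were counted as kept. Without replicate 1 these lists had 10 and 8. With detection at 0.5 FPKM the embryo and seed list had 2 detected genes, and with detection at 2 FPKM the cytokinin synthesis list had 7 and the auxin synthesis list 5. The mean share of the 100 most abundant genes was 15.97% by estimated counts, 20.8% with the most abundant isoform per gene and 20.6% with isoforms of at least 200 bases, an alternative chosen after seeing the data, and leaving out each library in turn gave 21.6% to 21.7%. Medians over detected members only, which drop the low members by construction, were 7.42 FPKM for root meristem, 7.34 for root hair, 21.5 for root uptake, 21.0 for callus, 3.597 for embryo and seed, 12.8 for shoot meristem, 23.9 for leaf primordium, 13.0 for shoot epidermis, 14.5 for floral, 3.78 for cytokinin synthesis, 23.1 for cytokinin perception, 9.79 for auxin synthesis, 14.4 for gibberellin, 40.01 for ethylene, 2.67 for abscisic acid, 20.7 for jasmonate and salicylate and 89.8 FPKM for flavonoid genes. The cause of the other moves was not tested. No paired analysis was possible because only wild-type libraries were used and no groups were compared. Depth limits the lowest genes: 422 detected genes had under 10 estimated counts in a library, and 5609 genes had 0 in both.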

Other observations

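Among genes with a mean of at least 10 FPKM, the largest differences between the libraries mostly belonged to transcripts of few counts. RTFL13, AT5G23411, AT5G04790, ATCG00070 and AT5G04238 were listed at 0 in replicate 2, and none had over 4.28 estimated counts in replicate 1. AT1G32670, AT5G66053, AT5G50562 and AT4G35655 were listed at 0 in replicate 1 and had at most 2.81 estimated counts in replicate 2. AT1G62500, a lipid transfer protein gene, was the exception at 2.26 and 39.0 FPKM, from 26.7 and 461 estimated counts.

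Among those of these genes with at least 100 estimated counts in 1 library or both, a group looked at after seeing these values, AT1G62500 again led. Also higher in replicate 2 were the drought-repressed gene DR4, at 3.72 and 54.8 FPKM, the gibberellin-regulated gene GASA6, at 9.92 and 93.8 FPKM, the protease gene AT1G09750, at 1.57 and 19.9 FPKM, and VSP2. Lower in replicate 2 were AT1G23130, at 330.2 and 29.9 FPKM, the defensin-like gene AT3G59930, at 86.2 and 7.57 FPKM, DIN11, at 23.7 and 2.00 FPKM, AT1G64370, at 146 and 17.4 FPKM, and CASP1.

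The table also holds 180 loci without a reference gene name, of which 132 (73.3%) were detected. The highest by mean, Arab_newGene_203 (chr3:4137024-4137917), had 316 and 410.1 FPKM, and its span overlaps the noncoding RNA gene AT3G12965 of the TAIR10.1 annotation. Arab_newGene_193 (chr3:14197115-14205199) had 330.0 and 250.1 FPKM and 0.256% and 0.186% of the estimated counts, and Arab_newGene_214 overlaps it. In that annotation, to which the table's build was not stated to belong, the span of Arab_newGene_193 holds 2 ribosomal RNA genes, AT3G41768 and AT3G41979.

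In the lists 5 genes have no entry of their own because the table puts their isoforms under a neighbour. Read by isoform, ARF3, an auxin response factor of leaf polarity, had 40.3 and 41.6 FPKM, the callus gene ADA2B had 21.1 and 21.0 FPKM, the vascular factor gene LHW had 49.7 and 44.2 FPKM, and LHCB2.1, an antenna protein gene, had 203 and 97.2 FPKM. IAA10 had 4.20 and 3.504 FPKM.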
